A study of Homo sapiens with 4 samples.

Results

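The 8 transcription factors of the intestinal epithelium described here, CDX1, CDX2, HNF4A, GATA6, KLF4, KLF5, ELF3 and SOX9, were measured in HCT116 cells that carried FOXD2 or an empty vector. They were chosen by name, 8 of the 60683 genes in the tables, and all 8 symbols matched a gene identifier. HCT116 is an established human colorectal carcinoma line. FOXD2 cells (2 libraries) had been stably transduced with a pSin lentivirus that carries the whole coding region of FOXD2, which encodes a DNA-binding protein of the forkhead class. Empty vector cells (2 libraries) had received the pSin lentivirus without an insert, and cells of both groups were grown in puromycin to select transduced cells. Messenger RNA with a polyA tail was sequenced to ask how expression of FOXD2 changes the transcripts of these cells. The labels do not say whether the cells were pools or clones, nor whether replicates came from separate cultures, and the spread that enters each p-value is that between these libraries and may be technical.

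In the gut, CDX1 and CDX2 are homeodomain factors that give the epithelium its intestinal rather than gastric or oesophageal character. HNF4A, a nuclear receptor, and GATA6, a zinc finger factor, act with them on genes of enterocytes. KLF4 is linked to cells that have stopped dividing and KLF5 to dividing crypt cells, ELF3 is an ETS factor of simple epithelia, and SOX9 marks stem and progenitor cells of the crypt base and Paneth cells.

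The factors did not move together. SOX9 and KLF5 rose in FOXD2 cells, CDX2, KLF4 and ELF3 fell, HNF4A and GATA6 did not pass the test, and CDX1 had no count in any library. The groups were compared with edgeR's quasi-likelihood test on the counts of all genes that passed a filter on low counts, with Benjamini-Hochberg adjustment and a threshold of 0.05. Of the 7 members tested, 2 were higher and 3 lower, with a median log2 fold change (FOXD2 over empty vector) of 0.09. Across all 14470 genes tested, 53.5% passed, 27.2% as higher and 26.4% as lower, with a median of 0.01, so 5 of 7 is not a share that sets these factors apart from other genes. In bulk RNA, fewer cells of a type and less RNA per cell cannot be told apart.

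Reference sequence is shown for members whose start-site windows hold, or lack, the letters a forkhead protein prefers. RefSeq start-site windows on GRCh38.p14 were matched for 6 members, in 8 windows since KLF5 and HNF4A have a pair each. CDX1 and SOX9 had no window. In the 250 bases before each start, the core forkhead motif TGTTTAC was sought on both strands. It was found in 2.98% of all 35116 windows and in 1 of the 8 member windows, that of CDX2, where it lies on the other strand as GTAAACA with its first base 13 bases before the start. RefSeq starts can lie inside a gene: all 250 bases of the CDX2 window, and of the ELF3 window, lie in the gene's own GENCODE 29 exons, as do 213 bases of the downstream KLF5 window and 146 of the GATA6 window. The CDX2 match therefore stands in annotated exon sequence. The CDX2 site (chr13:27969316-27969345, minus strand) is printed with the motif in capitals, because CDX2 fell and is the member with this match. A match of letters is not evidence of binding.
CDX2: attactaatagagtcttGTAAACActcgtt

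The windows of the paralogs KLF4 and KLF5, which moved in opposite directions, are shown beside it. KLF4 (chr9:107489770-107490019, minus strand) has no forkhead match and a GC content of 69.2%. For KLF5 the upstream start is shown (chr13:73054726-73054975, plus strand), with a GC content of 40.8%. Its capitals mark a match to a CDX-type motif, TTTATNG, read on the other strand as CNATAAA. That motif was found in 8.93% of all windows and in 3 of the 8 member windows, those of ELF3, CDX2 and KLF5. The downstream start of KLF5 had a GC content of 70.8% and neither motif.
KLF4: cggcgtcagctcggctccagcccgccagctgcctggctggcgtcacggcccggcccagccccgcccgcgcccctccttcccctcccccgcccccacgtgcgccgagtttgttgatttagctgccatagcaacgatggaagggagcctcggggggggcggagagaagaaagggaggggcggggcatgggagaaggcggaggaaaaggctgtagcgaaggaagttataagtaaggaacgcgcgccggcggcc
KLF5: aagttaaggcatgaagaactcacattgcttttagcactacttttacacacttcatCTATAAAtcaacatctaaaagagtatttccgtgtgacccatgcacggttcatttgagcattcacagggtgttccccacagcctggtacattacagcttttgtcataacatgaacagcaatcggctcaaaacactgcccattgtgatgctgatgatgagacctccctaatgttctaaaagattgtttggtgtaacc

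Of the other motifs sought on both strands of these windows, the GATA letters AGATAA were found for CDX2 and for the upstream start of HNF4A (9.17% of all windows). The SOX letters AACAAT were found for CDX2 and the upstream start of KLF5 (8.98%), and the HNF4 letters CAAAGTCC in no member window (1.02%). The KLF letters CCACCC were found for GATA6 and both starts of HNF4A (31.3%), and the ETS letters AGGAAG for KLF4 and CDX2 (28.7%).

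Each library held between 14231338 and 15535817 counts assigned to genes. FOXD2 was measured at 526 and 479 CPM in FOXD2 cells and at 3.50 and 2.78 CPM in empty vector cells (log2 fold change 7.32, SE 0.10, edgeR adjusted p = 6.5e-50). CPM is the count scaled to the TMM-adjusted library size. Mitochondrial transcripts made up 10.6% and 10.9% of counts in FOXD2 libraries and 8.81% and 9.0% in empty vector libraries, and their part in the results below was not tested. The epithelial markers KRT8, KRT18, KRT19 and CDH1 were higher in FOXD2 cells, by 0.85 to 1.09 on the log2 scale. EPCAM was higher by 0.15 (edgeR adjusted p = 0.0211), a call lost under 6 of 14 alternative settings, among them those without FOXD2 replicate 1 (log2 fold change 0.13) and without either empty vector library (0.10 and 0.19). Markers of differentiated colon cells were nearly absent from all libraries. KRT20 had 12 and 10 counts in FOXD2 libraries and 15 and 27 in empty vector libraries, and LGALS4, CDH17, GPA33 and VIL1 had at most 7 counts over either group.

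Markers of other cell types were read from 3 lists. Of 10 fibroblast markers 2 were tested and rose, COL1A1 and ACTA2. LUM, DCN, PDGFRA, COL1A2, POSTN and THY1 had 0 counts. COL3A1 had 6 and 5 counts in FOXD2 libraries and 1 and 4 in empty vector libraries. PDGFRB had 6 and 4 counts in FOXD2 libraries and 0 and 5 in empty vector libraries. The list summed to 41.0 to 41.5 CPM in FOXD2 libraries and 13.3 to 15.3 CPM in empty vector libraries. Of 11 blood and endothelial markers 3 were tested and CD68, a lysosomal protein of macrophages and other cells, rose, while PTPRC, CD3E, HBB and CDH5 had 0 counts. That list summed to 36.6 to 45.6 CPM in FOXD2 libraries and 6.44 to 7.35 CPM in empty vector libraries. Of 7 markers of packaging cells 4 were tested. VGF was higher and ZIC2 lower under all 14 alternatives, whereas the calls of PAX2 (higher) and LHX2 (lower) were lost under 6 and 5 of them, including those without FOXD2 replicate 2 and without empty vector replicate 1, and for PAX2 also without empty vector replicate 2. The list summed to 96.1 to 107 CPM in FOXD2 libraries and 80.8 to 83.0 CPM in empty vector libraries. For each list, its part in the results was not tested.

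**Figure D1:**
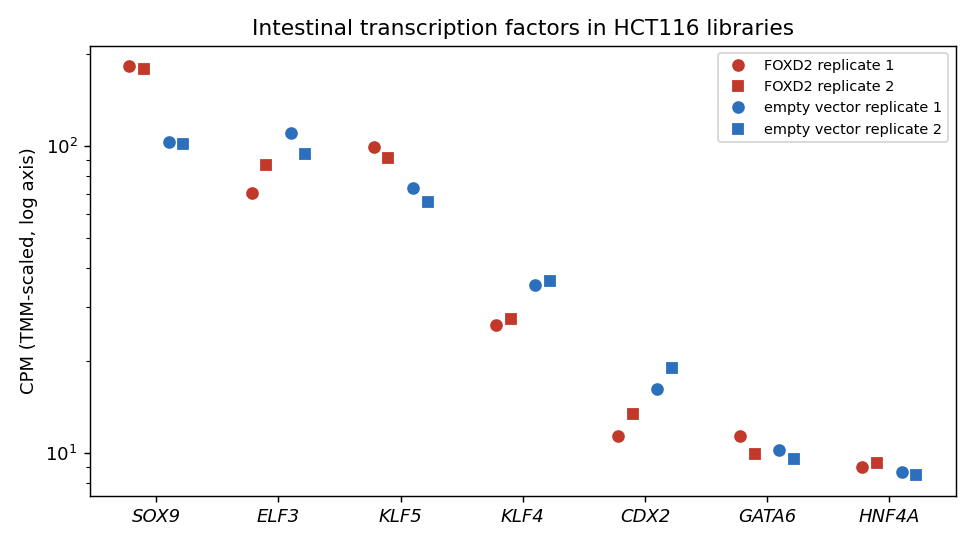
CPM on a log axis for the 7 members with counts, with FOXD2 libraries in red and empty vector libraries in blue, and circles for replicate 1 and squares for replicate 2. SOX9 and KLF5 lie higher in both FOXD2 libraries, and ELF3, KLF4 and CDX2 lower.

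The caudal factors differed from each other in being expressed at all. CDX1, on chromosome 5 (150166795 to 150184558, plus strand, GRCh38), had 0 counts in all 4 libraries, which allows up to 3 counts in a library, or 0.193 to 0.211 CPM. This limit covers counting error only. CDX2, on chromosome 13 (27962137 to 27971139, minus strand), was measured at 11.4 and 13.4 CPM in FOXD2 cells and at 16.2 and 18.9 CPM in empty vector cells. Both FOXD2 libraries lay below both empty vector libraries. Its log2 fold change was -0.51 (SE 0.13, 95% interval -0.78 to -0.24, edgeR adjusted p = 0.0010). Without empty vector replicate 2 the call was lost (-0.40, adjusted p = 0.056). CDX4, the third caudal gene, had 0 counts.

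HNF4A and GATA6 were low and differed little between groups. HNF4A (chromosome 20, 44355700 to 44434596, plus strand) was measured at 8.99 and 9.29 CPM in FOXD2 cells and at 8.65 and 8.48 CPM in empty vector cells, groups that did not overlap. Its log2 fold change was 0.09 (SE 0.16, 95% interval -0.23 to 0.42, edgeR adjusted p = 0.65), and the groups' difference was not resolved from 0 by the test. GATA6 (chromosome 18, 22169443 to 22202528, plus strand) was measured at 11.4 and 9.98 CPM in FOXD2 cells and at 10.2 and 9.60 CPM in empty vector cells, and the groups overlapped. Its log2 fold change was 0.11 (SE 0.15, 95% interval -0.20 to 0.41, edgeR adjusted p = 0.57). GATA6-AS1, which shares 240 bases of exon with GATA6 on the opposite strand in GENCODE 29, had 4 and 4 counts in FOXD2 libraries and 1 and 0 in empty vector libraries.

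The Kruppel-like pair moved in opposite directions. KLF5 (chromosome 13, 73054976 to 73077542, plus strand) was measured at 98.9 and 91.4 CPM in FOXD2 cells and at 72.8 and 65.8 CPM in empty vector cells. KLF4 (chromosome 9, 107484852 to 107490482, minus strand) was measured at 26.2 and 27.3 CPM in FOXD2 cells and at 35.2 and 36.4 CPM in empty vector cells. In neither gene did the groups overlap. The log2 fold change was 0.46 for KLF5 (SE 0.07, edgeR adjusted p = 6.1e-07) and -0.42 for KLF4 (SE 0.10, edgeR adjusted p = 0.00018). On the length-normalised TPM scale, the KLF5 level was 3.03 and 2.47 times that of KLF4 in FOXD2 libraries, and 1.72 and 1.48 times in empty vector libraries.

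ELF3 (chromosome 1, 202007945 to 202017188, plus strand) was measured at 70.2 and 86.8 CPM in FOXD2 cells and at 110.3 and 94.3 CPM in empty vector cells. The groups did not overlap, but the nearest libraries, FOXD2 replicate 2 and empty vector replicate 2, lay closer to each other than the replicates of either group did. The log2 fold change was -0.38 (SE 0.10, 95% interval -0.60 to -0.17, edgeR adjusted p = 0.0054). It was -0.24 without FOXD2 replicate 1 (adjusted p = 0.0066) and lost its call without TMM scaling (-0.32, adjusted p = 0.057). ELF3-AS1, a noncoding gene that shares 664 bases of exon with ELF3 on the opposite strand, had 3.34 and 4.24 CPM in FOXD2 cells and 2.22 and 2.25 CPM in empty vector cells. It rose by 0.76 on the log2 scale (SE 0.28, edgeR adjusted p = 0.020), a call lost under 6 of the 14 alternative settings, among them those without FOXD2 replicate 2 (adjusted p = 0.18) and without either empty vector library (0.080 and 0.075). The strand setting of the counting is not stated, so reads in the shared exon bases may have been counted for either gene. On the same strand as ELF3, AL691482.3 also shares 664 exon bases with it. AL691482.3 had 5 and 11 counts in FOXD2 libraries and 10 and 10 in empty vector libraries, and its part in the ELF3 counts was not tested.

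SOX9 (chromosome 17, 72121020 to 72126420, plus strand) showed the largest change of the 7 tested members. It was measured at 182 and 179 CPM in FOXD2 cells and at 103 and 102 CPM in empty vector cells. The replicates lay close together and the groups far apart. The log2 fold change was 0.81 (SE 0.06, 95% interval 0.68 to 0.94, edgeR adjusted p = 4.6e-16), a fold of 1.76. Of all genes tested, 16.1% changed by more than SOX9 in either direction, whereas 31.4% changed by more than CDX2, 35.5% by more than KLF5, 38.9% by more than KLF4 and 42.9% by more than ELF3. The noncoding neighbours were read from a list. LINC00511 was measured at 53.9 and 52.2 CPM in FOXD2 cells and at 25.5 and 25.3 CPM in empty vector cells (log2 fold change 1.06, edgeR adjusted p = 4.4e-15). SOX9-AS1, which overlaps SOX9 on the opposite strand but shares no exon base with it, had 32 and 40 counts in FOXD2 libraries and 16 and 15 in empty vector libraries. Its log2 fold change was 1.16 (SE 0.37, edgeR adjusted p = 0.0063), a call lost under 5 of the 14 alternatives, among them those without FOXD2 replicate 2 (0.94) and without empty vector replicate 2 (1.05).

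**Figure D2:**
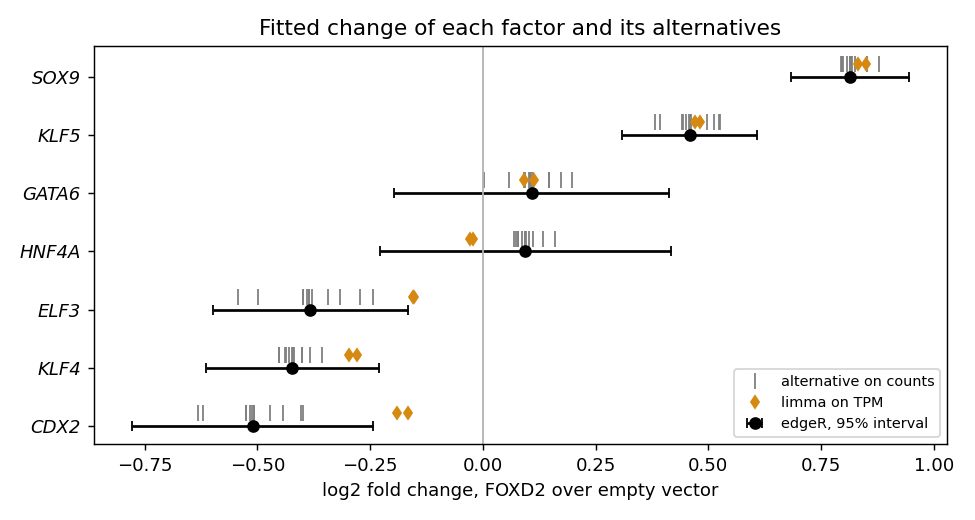
Log2 fold change of FOXD2 over empty vector for each tested member, with black points and bars for the edgeR estimate and its 95% interval, grey ticks for alternatives on counts and orange diamonds for limma on TPM. The SOX9 and KLF5 values stay to the right of 0 under all settings, while the TPM values of CDX2, KLF4 and ELF3 lie closer to 0 than their count-based values.

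The falls of the 3 lower factors were smaller and less firm on the TPM scale, which divides by transcript length. RSEM reports for each gene and library a mean length of its transcripts, weighted by their estimated abundance, so this value shifts when the estimated mix of transcripts shifts. For CDX2 it was 3081 and 2296 bases in FOXD2 libraries and 3448 and 2924 bases in empty vector libraries, and the groups overlapped. CDX2 then stood at 5.06 and 8.38 TPM in FOXD2 cells and at 6.40 and 8.67 TPM in empty vector cells. Here the groups overlapped too, although the counts did not.

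For ELF3 the mean length was 1650 and 1606 bases in FOXD2 libraries and 1879 and 1792 bases in empty vector libraries, groups that did not overlap. Its TPM was 62.2 and 81.0 in FOXD2 cells and 84.4 and 74.0 in empty vector cells, which overlapped. KLF4 had mean lengths of 2668 and 2473 bases in FOXD2 libraries and 2743 and 2691 bases in empty vector libraries. Its TPM was 13.6 and 15.7 in FOXD2 cells and 17.8 and 18.2 in empty vector cells, still without overlap. With limma on log2(TPM + 1) none of the 3 passed: the log2 fold changes were -0.17 for CDX2 (adjusted p = 0.61), -0.28 for KLF4 (0.090) and -0.15 for ELF3 (0.38). That setting also used another test than edgeR and no TMM scaling. The part of each, and of transcript length, in the lost calls was not tested. Whether the transcripts used differed between groups was not tested, as values per transcript were not analysed here. SOX9 has a single transcript in the files, of 3931 bases, so its TPM follows its counts.

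**Figure D3:**
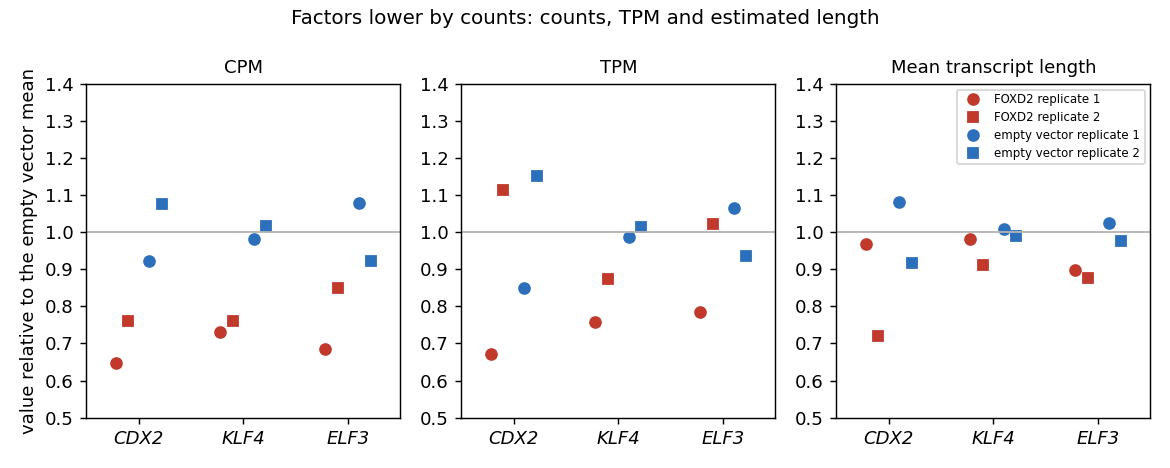
CPM, TPM and RSEM mean transcript length of CDX2, KLF4 and ELF3 in each library, divided by the mean of the empty vector libraries, with FOXD2 libraries in red and empty vector libraries in blue. The groups are apart in CPM for all 3 genes, and overlap in TPM for CDX2 and ELF3.

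By mean TPM, the order of the members was the same in both groups: ELF3, SOX9, KLF5, KLF4, CDX2, GATA6, HNF4A and CDX1. In FOXD2 cells ELF3 averaged 71.6 ± 13.3 TPM and SOX9 62.6 ± 0.269 TPM (SD, n = 2 each), and the ranges of these neighbours overlapped. In empty vector cells ELF3 averaged 79.2 ± 7.35 TPM, apart from SOX9 at 34.7 ± 1.08 TPM. By the TPM values of single libraries, the other neighbours did not overlap in either group. RSEM's own intervals for GATA6 and HNF4A did overlap in each library. In empty vector replicate 1 they ran from 2.82 to 3.98 TPM for GATA6 and from 2.74 to 4.68 TPM for HNF4A. KLF5 averaged 40.1 ± 1.70 TPM in FOXD2 cells and 28.7 ± 2.51 TPM in empty vector cells. RSEM's own interval for the KLF5 level was wide, reaching 115 TPM in FOXD2 replicate 1 and in empty vector replicate 1. In each library it spanned the whole SOX9 interval. In FOXD2 replicate 1 the intervals ran from 36.3 to 115 TPM for KLF5 and from 53.7 to 57.8 TPM for SOX9. The TPM of SOX9 lay above its own interval in each library. The intervals of CDX2 (3.65 to 6.76 TPM) and GATA6 (3.19 to 4.39 TPM) overlapped in FOXD2 replicate 1. By these intervals the order of such neighbours was not resolved. GATA6 stood at 4.02 and 3.61 TPM in FOXD2 cells and at 3.62 and 3.41 TPM in empty vector cells, and HNF4A at 2.83 and 3.32 TPM in FOXD2 cells and at 3.30 and 2.97 TPM in empty vector cells.

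Of the summed TPM of all 8 members, SOX9 made up 32.6% and 29.4% in FOXD2 libraries, against 19.6% and 20.2% in empty vector libraries. The share of ELF3 was 32.5% and 37.9% in FOXD2 libraries, against 46.5% and 44.0% in empty vector libraries. The level of SOX9 was 12.3 and 7.49 times that of CDX2 in FOXD2 libraries and 5.54 and 3.92 times in empty vector libraries, on the TPM scale.

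The paralogs of the members were read from family lists. Of 13 tested KLF genes other than KLF4 and KLF5, 5 rose and 3 fell (median log2 fold change 0.07, against 0.01 for all genes tested). Across all genes tested, 27.2% were higher and 26.4% lower. Whether the families here and below differ from other genes was not tested. KLF14 had 37 and 29 counts in FOXD2 libraries and 4 and 5 in empty vector libraries (log2 fold change 2.79). KLF8 (1.71), KLF9 (1.30), KLF6 (0.35) and KLF2 (0.34) rose too. KLF3 (-0.48), a repressor of the family, KLF13 (-0.45) and KLF7 (-0.39) fell. The calls of KLF2 and KLF7 were each lost under 6 of the 14 alternatives. Without FOXD2 replicate 1 KLF2 stood at 0.08 and KLF7 at -0.22, and both calls were also lost without empty vector replicate 1 (0.26 and -0.38). KLF6 lost its call without empty vector replicate 2 (0.24).

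Of 6 tested SOX genes other than SOX9, 2 rose and 2 fell (median -0.21), beside 27.2% higher and 26.4% lower among all genes tested. SOX4, a SOX factor of progenitor cells and carcinomas, fell most: it was measured at 23.7 and 29.8 CPM in FOXD2 cells and at 122 and 108 CPM in empty vector cells (log2 fold change -2.10, SE 0.09, edgeR adjusted p = 9.5e-20). On the TPM scale SOX9 was 9.60 and 7.51 times SOX4 in FOXD2 libraries, against 1.06 and 1.18 times in empty vector libraries. SOX12 fell by 0.42, SOX13 rose by 0.85 and SOX8, in the same subgroup of the family as SOX9, rose by 1.08. SOX2, a factor of stomach and oesophagus, had 2 counts over the FOXD2 libraries and 3 over the empty vector libraries.

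Of 5 tested relatives of ELF3, ELF5 and ELF1 rose and none fell (median 0.21), beside 27.2% higher and 26.4% lower among all genes tested. ELF5 had 47 and 63 counts in FOXD2 libraries and 5 and 3 in empty vector libraries (log2 fold change 3.69, SE 0.44, edgeR adjusted p = 4.0e-10). EHF, the epithelial ETS factor most like ELF3, was measured at 42.6 and 55.1 CPM in FOXD2 cells and at 43.6 and 38.6 CPM in empty vector cells, which overlapped. Its value of 0.25 did not pass (edgeR adjusted p = 0.0501), but passed under 7 of the 14 alternatives. The call of ELF1 (0.21) was lost under 8 of them. Of 3 tested genes in the GATA list, GATA2 fell by 0.58 (SE 0.11, edgeR adjusted p = 1.6e-05), and GATA3 (0.09) and the cofactor ZFPM1 (-0.05) did not pass. GATA4 and GATA5, the other GATA factors of endoderm, had 0 counts in all libraries.

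**Figure D4:**
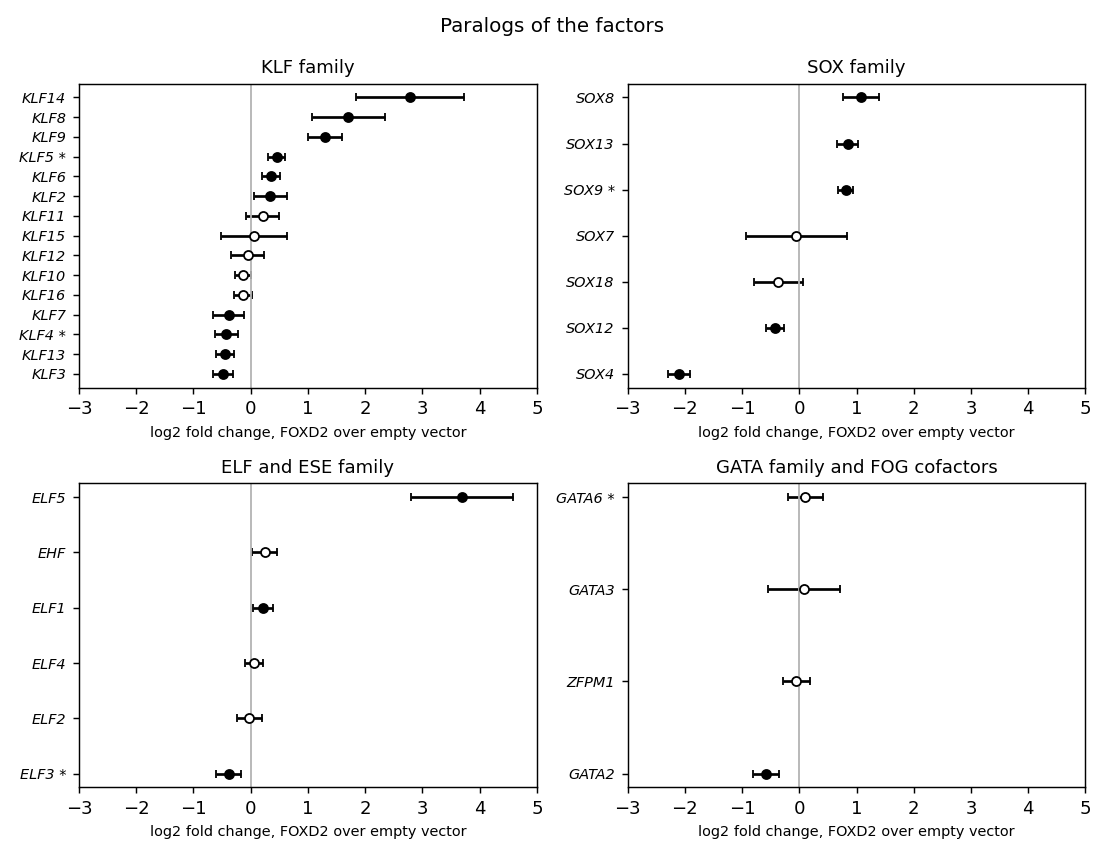
Log2 fold change of FOXD2 over empty vector with 95% intervals for the tested paralogs in 4 families, with members of the set marked by an asterisk and filled points for genes past the threshold. SOX4 lies far below SOX9, and ELF5 far above ELF3.

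Other transcription factors of the gut epithelium moved both ways. Of 46 listed, 25 were tested, 8 rose and 8 fell (median -0.07). Across all genes tested, 53.5% passed, 27.2% as higher and 26.4% as lower, and whether this list differs from other genes was not tested. Rises included PRDM1, known in mouse as a repressor of the immature intestine (log2 fold change 3.50, SE 0.20), HES1, the Notch effector that favours absorptive cells (2.68, SE 0.08), and VDR, the vitamin D receptor (0.73, SE 0.10). PRDM1 was measured at 18.4 and 20.1 CPM in FOXD2 cells and at 2.15 and 1.26 CPM in empty vector cells. HES1 was measured at 149 and 153 CPM in FOXD2 cells and at 23.0 and 23.8 CPM in empty vector cells.

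The largest falls were SOX4, the nuclear receptor PPARG (-1.94, SE 0.11), the Wnt effector TCF7L2 (-1.37, SE 0.07) and PAX6 (-0.88, SE 0.26), a factor of enteroendocrine cells. PPARG was measured at 10.4 and 11.5 CPM in FOXD2 cells and at 39.6 and 44.3 CPM in empty vector cells. The edgeR adjusted p-values of these 7 genes were at most 0.00375, that of PAX6, whose call was lost under 3 of the 14 alternatives. HNF4G, the paralog of HNF4A, was measured at 6.51 ± 1.03 CPM in FOXD2 cells and 5.11 ± 0.569 CPM in empty vector cells (SD, n = 2 each), and its 0.35 did not pass (edgeR adjusted p = 0.14). Among the genes not tested, ISX, ASCL2 and NEUROG3 had 0 counts, and ATOH1, which drives secretory cells, had 1 count over the FOXD2 libraries and 6 over the empty vector libraries.

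**Figure D5:**
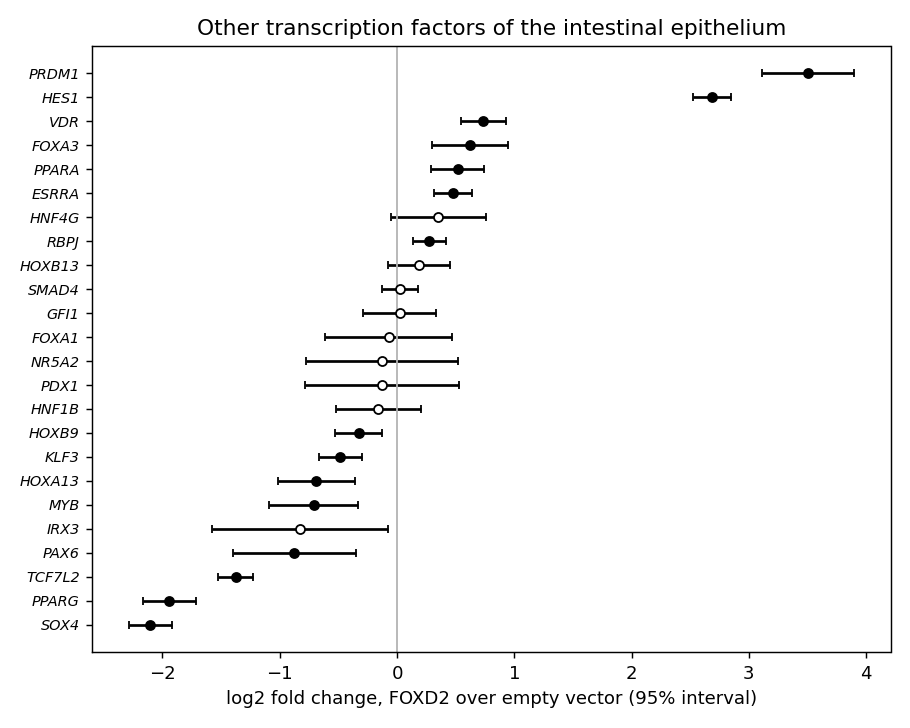
Log2 fold change of FOXD2 over empty vector with 95% intervals for 24 of the 25 tested transcription factors in the list of other intestinal factors, with filled points for genes past the threshold. The values run from SOX4 at -2.10 to PRDM1 at 3.50.

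Genes linked to these factors in gut or other tissues were read from 3 lists, and their dependence on the factors was not tested here. Of 25 genes associated with CDX factors only 7 were tested, of which 3 rose and 1 fell. Across all genes tested, 27.2% were higher and 26.4% lower. HEPH, an iron oxidase of enterocytes, had 105 and 110 counts in FOXD2 libraries and 1 and 3 in empty vector libraries (log2 fold change 5.61, SE 0.42). With so few empty vector counts its size is loose: it was 6.47 without empty vector replicate 2, 5.10 without empty vector replicate 1 and 1.74 with limma on log2(TPM + 1), with the call kept under all 14 alternatives. The mucin MUC13 (3.36, SE 0.31) and the CDK inhibitor CDKN1A (1.43, SE 0.10) rose too, and the carbonic anhydrase CA2 fell by 0.70 (SE 0.10). Classical CDX2 targets were nearly silent: SI, SLC26A3 and TFF3 had 0 counts, and MUC2 had 1 over the FOXD2 libraries and 7 over the empty vector libraries.

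Of 30 genes associated with HNF4A, 7 were tested, 5 rose and 1 fell. The 5 include EPCAM (0.15), given above as an epithelial marker, whose call was lost under 6 of the 14 alternatives. CYP3A5 (3.74, SE 0.47), the peptide transporter SLC15A1 (0.93, SE 0.24), the microvillus actin bundler ESPN (0.80, SE 0.08) and the claudin CLDN7 (0.25, SE 0.06) rose most, and the peptidase DPP4 fell by 1.37 (SE 0.25). CYP3A5, with 5 and 2 counts in empty vector libraries, stood at 4.56 without empty vector replicate 1. The lipid transport genes APOA4, APOB, APOC3, FABP1 and FABP2 had 0 counts. Of 30 genes linked to KLF4, KLF5, ELF3 or SOX9, 20 were tested, 15 rose and 2 fell (median 1.01, against 0.01 for all genes tested). Of all genes tested, 27.2% were higher and 26.4% lower, and whether these 3 lists differ from other genes was not tested. The 15 include KRT8, KRT18, KRT19 and CDH1, given above as epithelial markers. They also include CDKN1A, counted in the CDX list too, and CLDN7, counted in the HNF4A list too. Among those that rose were CCN2 (4.80), the claudin CLDN4 (1.98) and the mucin MUC1 (1.94). TGFBR2, a receptor gene that ELF3 activates in mouse intestine, fell: it was measured at 9.70 and 8.61 CPM in FOXD2 cells and at 36.3 and 37.2 CPM in empty vector cells (-2.00, SE 0.12). BIRC5 fell by 0.44. The genes of the crypt and of Wnt signalling in this list differed among themselves. AXIN2, a Wnt feedback gene, was measured at 53.8 and 56.2 CPM in FOXD2 cells and at 27.3 and 28.4 CPM in empty vector cells (log2 fold change 0.98, SE 0.09, edgeR adjusted p = 4.2e-14). EPHB2 (0.19, adjusted p = 0.0771) and EPHB3 (0.36, adjusted p = 0.0623) did not pass with edgeR, but each passed under 3 of the 14 alternatives. LGR5 and OLFM4 had at most 4 counts over either group, and SOX9's cartilage targets COL2A1 and ACAN at most 3. Apart from EPCAM (0.0211), the edgeR adjusted p-values of the genes named as risen or fallen in these 3 lists were at most 0.0011.

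Of 13 gastric genes 2 were tested. CTSE, a gastric protease, had 17 and 13 counts in FOXD2 libraries and 0 in both empty vector libraries. Against an assumed 3 counts over the empty vector group it was 9.63-fold higher, a value that leaves out the error of the FOXD2 counts. ANXA10 had 6 and 1 counts in FOXD2 libraries and 76 and 79 in empty vector libraries (log2 fold change -4.48, SE 0.42, edgeR adjusted p = 1.8e-13). Its size rested on single FOXD2 libraries, at -6.12 without FOXD2 replicate 1 and -3.76 without FOXD2 replicate 2, and was -2.49 with limma on log2(TPM + 1), with the call kept throughout. MUC6, TFF1, TFF2, GKN1 and CLDN18 had 0 counts.

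The gene with the most similar profile was sought for each member among the 102 other tested genes of all lists, by the distance between log2 CPM profiles over the 4 libraries after centring each on its mean. The nearest gene was KLF4 for CDX2 (distance 0.193) and SOX12 for KLF4 (0.0820), both lower in FOXD2 cells. It was KLF3 for ELF3 (0.141), PDGFA for KLF5 (0.0577), KRT8 for SOX9 (0.0651), ELF4 for HNF4A (0.0799) and HOXB13 for GATA6 (0.111). The median distance of a member to the listed genes lay between 0.648 and 0.953. With 4 libraries these distances are a description.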

How the data were processed

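Polyadenylated RNA was sequenced in 2 FOXD2 and 2 empty vector libraries of HCT116 cells, with a directional NEBNext kit per the labels' protocols. GRCh38 (hg38), RSEM 1.2.31 and STAR 2.7.2b are named in the submitters' processing notes. The annotation release and strand setting are not given in the sources used here. The authors deposited, per the file headers, RSEM expected counts (estimates that share multi-mapping reads), TPM, mean transcript lengths in bases, and a posterior standard deviation of each count. That deviation was 0 for the members other than ELF3, where it was at most 3.13 counts. FPKM was not used.

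Expected counts were rounded and tested with edgeR 4.0.16 in R 4.3.3 (TMM, filterByExpr, robust quasi-likelihood fit, intercept and group). Members, gene lists and tests were chosen with earlier results of these data known. Lists are described by counts and medians. Of each list, up to 4 of the largest rises and falls past the threshold, the paralogs past it and the tested neighbouring noncoding genes were named, while genes at 0 counts or not past the threshold were named after their values were seen. A few listed genes are counted but not reported here by name. Symbols were matched for 60370 of 60683 identifiers. Coordinates are from GENCODE 29 on GRCh38, which is not the release of the files in all lengths. Alternatives used DESeq2 1.42.0, limma 3.58.1 and other filters, scalings and library sets, and scripts were tested on simulated counts. Replicates differed beyond sampling noise (chi-square per degree of freedom 4.13 between FOXD2 and 2.62 between empty vector libraries).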

Additional observations from a re-analysis of the deposited data

How the results depend on the processing

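FOXD2, SOX9 and KLF5 kept their direction and call under all 14 alternatives, SOX9 at 0.79 to 0.88 and KLF5 at 0.38 to 0.53 on the log2 scale. HNF4A (-0.03 to 0.16) and GATA6 (0.00 to 0.20) passed under none. With limma on log2(TPM + 1) and on log2(TPM + 0.1), the log2 fold changes were -0.17 and -0.19 for CDX2, -0.28 and -0.30 for KLF4, and -0.15 and -0.16 for ELF3, none past the threshold. The number of lower members was then 0 and 0, and that of lower genes in all lists without the members 12 and 12, against 19. ELF3 stood at -0.32 without scaling factors. Leaving out 1 library gave -0.63 to -0.40 for CDX2, past the threshold except without empty vector replicate 2, -0.45 to -0.40 for KLF4, -0.54 to -0.24 for ELF3, and 2 to 3 lower members. In these fits a group with 1 library left takes its spread from the 2 libraries of the other. Of 66 called list genes, 19 lost their call under 1 or more alternatives and 0 changed direction. All genes gave 3929 higher and 3816 lower, but 2407 and 2791 with DESeq2 and 2929 and 2442 with limma on log2(TPM + 1), with 2436 lower on log2(TPM + 0.1). Equal replicate numbers did not deviate together across genes (correlation -0.0989). With a replicate block 3680 genes were higher and 3494 lower, and CDX2 stood at -0.51. The cause of these differences was not tested.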
